A study of Mus musculus with 2 samples.

Results

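Rbp3, Sag, Rlbp1, Rpe65, Rgr, Abca4, Rcvrn, Opn1sw and Gnat1 encode proteins of photoreceptors and of the retinal pigment epithelium, several of them targets of autoimmune eye disease. These 9 genes, taken by symbol, matched 10 RefSeq transcript lines among the 30794 lines and 23123 gene symbols measured, with 2 lines for Rlbp1 and 1 for each other gene. They were measured in the MHC class II high (mTEChi) and the MHC class II low (mTEClo) medullary thymic epithelial cells of wild-type B6 mice. Both populations were sorted from pooled thymi, each gave 1 poly(A)-selected library, and the labels give no age or sex. Sequencing was paired-end (100 bases a read) for mTEChi and single-end (50 bases) for mTEClo, and this cannot be told apart from the group. With 1 library a group no difference has a replicate check and no test was made. Intervals cover counting error only.

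In the eye, light closes channels of the photoreceptor outer segment through an opsin, the G protein transducin and a phosphodiesterase, and arrestin and calcium sensors end the signal. The spent chromophore is then shuttled to the pigment epithelium, isomerised and returned, which is called the visual cycle. Medullary thymic epithelial cells display such tissue antigens to developing T cells. In mice that lack Aire, the regulator of much of this display, Rbp3 is known as a target of autoimmunity against the eye.

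The antigens were listed mainly in the mTEChi library. All 9 were above 0 RPKM in mTEChi, whereas 5 were listed at 0 in mTEClo, namely Rlbp1, Rcvrn, Gnat1, Rbp3 and Rpe65. Of all 23123 symbols, 21.1% were likewise above 0 in mTEChi and listed at 0 in mTEClo. RPKM is a level per length of transcript and per depth, so it can be compared between genes. The summed level of the 9 genes was 12.5 RPKM in mTEChi and 2.48 RPKM in mTEClo. Rcvrn and Rlbp1 made up 62.2% of the sum in mTEChi, and Sag 69.7% of the sum in mTEClo.

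Sequence around the start sites is shown because most of these promoters share a short word that retinal genes are known for. RefSeq windows of 250 bases before to 50 after the start (build GRCm38.p6, later than the mm9 named for the files) were at hand for 7 of the 9 genes; those of Rcvrn and Gnat1 were not used here. The core TAATCC, bound in photoreceptors by the homeodomain factor CRX, was searched on both strands and lay in 5 of the 7 windows, against 7.06% of 32851 windows of all genes. Stretches of 60 bases before the start are given 5′ to 3′ along each gene, with the core or its reverse complement in capitals.
Rbp3, chr14:33953907-33953966, plus strand: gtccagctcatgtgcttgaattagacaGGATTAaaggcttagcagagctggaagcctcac
Sag, chr1:87803566-87803625, plus strand: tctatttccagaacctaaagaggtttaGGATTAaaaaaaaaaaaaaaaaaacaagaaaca
Abca4, chr3:122044375-122044434, plus strand: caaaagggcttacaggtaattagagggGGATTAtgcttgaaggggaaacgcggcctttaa
Rpe65, chr3:159599112-159599171, plus strand: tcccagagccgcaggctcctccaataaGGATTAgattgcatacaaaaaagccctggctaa
Rgr, chr14:37049149-37049208, minus strand: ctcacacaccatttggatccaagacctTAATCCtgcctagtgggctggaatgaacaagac

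The core ran in reverse in Rbp3, Sag, Abca4 and Rpe65, with its first base 69, 87, 58 and 42 bases before the start. In Rgr it ran forward, 167 bases before the start. The windows of Rlbp1 and Opn1sw did not hold these letters. The 250 bases before the Rlbp1 start are shown as the window of the gene with the highest mTEChi level among the 7, with the reverse of the TATA box letters TATAAA in capitals.
Rlbp1, chr7:79387028-79387277, minus strand: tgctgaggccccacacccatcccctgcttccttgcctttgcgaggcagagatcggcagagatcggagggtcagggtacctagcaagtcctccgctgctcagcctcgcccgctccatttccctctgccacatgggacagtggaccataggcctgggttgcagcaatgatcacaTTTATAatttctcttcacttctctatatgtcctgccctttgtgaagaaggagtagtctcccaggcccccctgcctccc

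**Figure D1:**
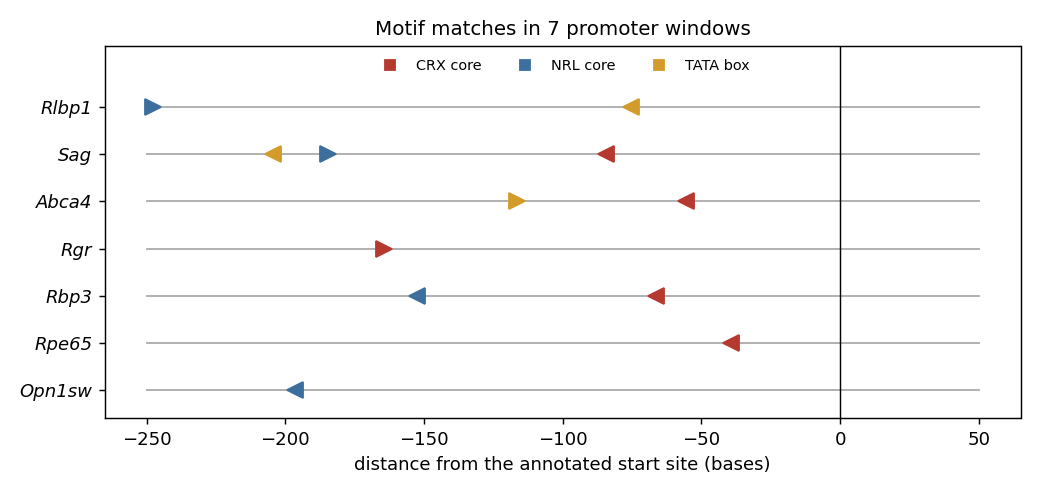
Position of motif matches in the promoter windows of 7 antigen genes, as the distance in bases from the annotated start site. Right- and left-pointing triangles mark matches on the gene's own strand and on the other strand; the CRX core lies in 5 of the 7 windows, between 167 and 42 bases before the start, and no 2 matches overlap.

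Other words were searched in the same way, on both strands. TATAAA lay in 3 of the 7 windows (Rlbp1, Sag and Abca4), against 13.6% of all windows, and TGCTGA, the core of the site of the rod factor NRL, in 4 (Rlbp1, Sag, Rbp3 and Opn1sw), against 19.5%. The Sp1 box CCGCCC was in 0 of the 7, against 35.7%. The windows were also poor in CpG, with a median ratio of observed to expected CpG of 0.110 in the 7 windows and 0.384 in all. Opn1sw and Rgr had 0 CpG, whereas Abca4 had 15 and a ratio of 0.630, above the median of all windows. A match is a run of letters, not a bound site.

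Levels among the rod genes spanned a wide range. Rcvrn, which encodes the calcium sensor recoverin that slows the shut-off of the light response and is an antigen of cancer-associated retinopathy in humans, was listed at 4.83 RPKM in mTEChi and at 0 in mTEClo. It was the highest of the 9 in mTEChi, above 62.5% of all symbols there. Gnat1, the rod transducin alpha subunit, was listed at 1.12 RPKM in mTEChi and at 0 in mTEClo. Sag, the rod arrestin known as S-antigen, went the other way, with 1.18 RPKM (95% counting interval 1.03 to 1.34) in mTEChi and 1.73 RPKM (1.33 to 2.22) in mTEClo. Sag was the only member at 1 RPKM or more in mTEClo, against 6 members in mTEChi.

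Rbp3, the retinoid carrier of the space between photoreceptors and pigment epithelium, was listed at 0.111 RPKM in mTEChi, from 67 recovered reads over 5295 bases, and at 0 in mTEClo. Abca4, the transporter that clears retinoid adducts from outer segment discs, had 1.11 RPKM (1.04 to 1.19) in mTEChi and 0.152 RPKM (0.0963 to 0.228) in mTEClo.

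Opn1sw, the short-wavelength cone opsin, was the only member far higher in mTEClo. It was listed at 0.00723 RPKM in mTEChi, from 2 recovered reads, and at 0.397 RPKM in mTEClo, from 20. In GENCODE M21, 397 of its 2410 transcript bases lie in exons of Calu on the opposite strand. By the RefSeq gene spans on GRCm38 the overlap with Calu was 5 bases, so the shared stretch depends on the annotation. The library keeps no strand, so reads of both genes cannot be told apart within a shared stretch. Calu, a calcium-binding protein gene of the secretory pathway, was listed at 26.1 RPKM in mTEChi and 54.1 RPKM in mTEClo, and its part in the Opn1sw value was not tested. In GENCODE M21 the other 9 transcript lines shared 0 exon bases with another gene.

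The 3 genes of the pigment epithelium and Müller glia were at very different levels in mTEChi. Rlbp1, the retinaldehyde carrier CRALBP, was listed at 2.95 and 2.89 RPKM on its 2 lines in mTEChi and at 0 on both in mTEClo. Those lines differ by few bases (2142 and 2134), so they are not separate evidence. Rgr, an opsin of the pigment epithelium and Müller glia, had 1.11 RPKM (1.02 to 1.21) in mTEChi and 0.202 RPKM (0.121 to 0.322) in mTEClo. Rpe65, the isomerase that makes the visual chromophore, was listed at 0.0803 RPKM in mTEChi, from 17 reads, and at 0 in mTEClo.

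**Figure D2:**
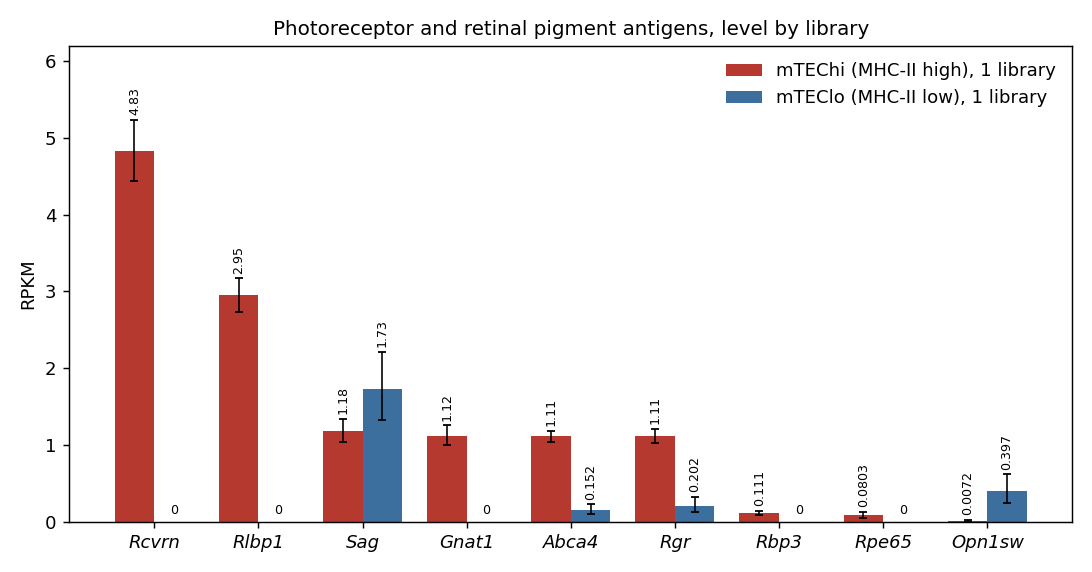
Level of the 9 antigen genes in RPKM in mTEChi and mTEClo, 1 library each, with 95% counting intervals as error bars where the value is above 0 and each value printed. The mTEChi bar is the higher one for 7 genes and the mTEClo bar for Sag and Opn1sw, and 5 genes are listed at 0 in mTEClo.

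In order of level in mTEChi, Rcvrn and Rlbp1 stood apart from each other and from the rest beyond counting error. Sag, Gnat1, Abca4 and Rgr followed between 1.11 and 1.18 RPKM, with overlapping intervals. Rbp3 (0.0855 to 0.140) and Rpe65 (0.0463 to 0.127) overlapped as well, and Opn1sw was last. In mTEClo the order was Sag, Opn1sw, Rgr and Abca4, where the intervals of Opn1sw and Rgr overlapped, as did those of Rgr and Abca4.

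For the comparison of the libraries, mTEClo was multiplied by 1.21, which sets the median ratio of well-expressed genes to 1. On that scale 7 of the 9 genes were listed higher in mTEChi by any amount, 5 of them with a 0 in mTEClo, against 60.7% of all symbols above 0 in either library. Among the 4 genes above 0 in both libraries, Abca4 was 6.07-fold higher in mTEChi (4.02 to 9.62) and Rgr 4.56-fold higher (2.83 to 7.68). The ratio of mTEChi to mTEClo was 0.566 for Sag (0.425 to 0.760) and 0.0151 for Opn1sw (0.00170 to 0.0619). Without a pseudocount, 2 of the 4 were thus past 2-fold higher and 1 past 2-fold lower, against 17.4% and 15.6% of 15740 symbols above 0 in both. No fold is given for the 5 genes listed at 0 in mTEClo.

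Over many genes the change was taken as log2((mTEChi + 1)/(scaled mTEClo + 1)), which understates low genes, and genes averaging at least 0.5 RPKM over both libraries were kept. Of the 9 members 6 were kept, and Rbp3, Rpe65 and Opn1sw were not. Rcvrn (2.54), Rlbp1 (1.98) and Gnat1 (1.08) were past 2-fold higher and 0 members past 2-fold lower. Of 15590 kept genes 16.1% were 2-fold higher and 9.35% lower, and among these calls 63.3% were higher, or 74.9% without scaling. All 3 are listed at 0 in mTEClo, where the filter and pseudocount make every kept gene 2-fold higher, so their count says no more than those zeros. The others were below 2-fold on this scale, with Abca4 at 0.84, Rgr at 0.76 and Sag at -0.50. The median over all 9 was 0.76, against 0.04 over all symbols.

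The zeros were set against depth. The values imply about 114750000 reads in mTEChi and 20850000 in mTEClo, with transcript lengths from GENCODE. At the mTEChi level, mTEClo would hold 109 reads of Rlbp1, 86.7 of Rcvrn and 44.99 of Gnat1, where the file lists 0. For Rbp3 and Rpe65 the expectation was 10.1 and 2.58 reads, and for Rpe65 0 reads are within counting error. Zeros were common at such levels, as 66.7% of 3259 symbols with 2 to 20 expected reads were listed at 0 in mTEClo. Abca4 had 23 reads where 140 were expected, Rgr 18 where 81.4 were expected, and Sag 62 where 35.03 were expected.

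Of the 6 members with 20 to 200 expected reads, 3 were listed at 0, against 16.5% of 6451 symbols in that range. Among 30 genes of the 6 retinal lists described below, members left out, 12 in that range were at 0 as well. If the zeros of the 3 members were true counts, 3 reads would bound the level at 0.0672 RPKM for Rlbp1, 0.138 RPKM for Rcvrn and 0.0618 RPKM for Gnat1. A 0 in the mTEClo file need not be a true count, however. Rps21, a ribosomal protein gene used by all cells, was listed at 144 RPKM in mTEChi and at 0 in mTEClo, where 978 reads were expected. Few lines of mTEClo held 1 to 3 reads (268), beside 8281 at 0.

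**Figure D3:**
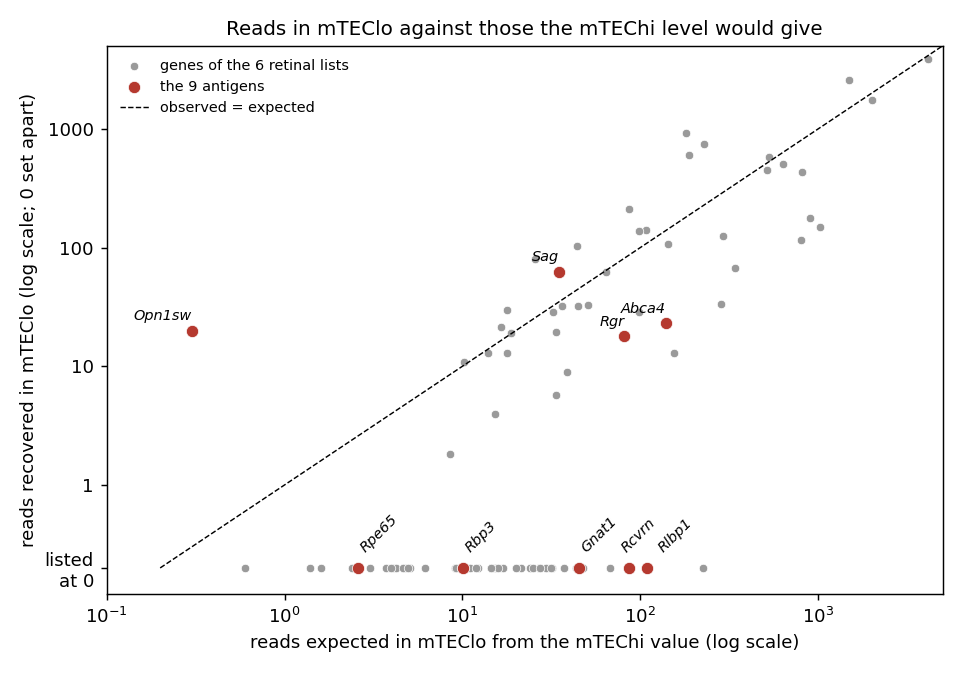
Reads recovered in mTEClo (vertical log axis, values of 0 set apart at the bottom) against the reads that the mTEChi level would give there (horizontal log axis), for the 9 antigens in red and the genes of 6 retinal lists in grey, leaving out genes at 0 in mTEChi or with no matched length. Abca4 and Rgr lie below the dashed line of equality, Sag and Opn1sw above it, and 5 antigens are listed at 0.

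Phototransduction genes apart from the members were mostly below the filter. Of 28 measured, 8 were kept, 1 was 2-fold higher and 0 were lower, and the median change over the 28 was 0.17. The higher one was Pde6h, the inhibitory subunit of cone phosphodiesterase, with 10.1 RPKM in mTEChi and 1.20 RPKM in mTEClo (2.17). Gnat2, the cone counterpart of Gnat1, was listed at 0.829 RPKM in mTEChi and at 0 in mTEClo. Arr3, the cone arrestin, was listed at 0 in both, unlike its rod counterpart Sag. Pdc, the transducin-binding antigen phosducin, was listed at 0.113 RPKM in mTEChi and at 0 in mTEClo. Gnb1 (77.5 RPKM in mTEChi, 60.2 RPKM in mTEClo) and Gnb3 (46.8 RPKM in mTEChi, 67.1 RPKM in mTEClo), G protein beta subunits also used outside the eye, were the most abundant of the list.

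Visual cycle genes moved in both directions. Of 13 measured, 10 were kept, of which 3 were 2-fold higher and 3 lower. Lrat, which esterifies retinol to make the substrate of Rpe65, had 1.68 RPKM in mTEChi and 0.116 RPKM in mTEClo (1.23). Stra6, the receptor for retinol-binding protein, had 19.04 RPKM in mTEChi and 3.13 RPKM in mTEClo (2.07). Ttr, the plasma carrier of that complex, had 39.04 RPKM in mTEChi and 4.66 RPKM in mTEClo (2.59). Among the lower ones were Rbp4, the plasma retinol carrier (-1.15), and Rdh5, a retinol dehydrogenase of the pigment epithelium (-1.12). These genes also serve retinoid metabolism outside the eye.

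Photoreceptor structure genes had 15 measured and 8 kept, of which 4 were 2-fold higher and 1 lower. Aipl1, a chaperone of phosphodiesterase, was listed at 5.63 RPKM in mTEChi and at 0 in mTEClo, and Fscn2, a retinal actin bundler, at 1.26 RPKM in mTEChi and at 0 in mTEClo. Prom1, a membrane protein of disc formation, had 5.62 RPKM in mTEChi and 0.907 RPKM in mTEClo (1.66). Rom1 of the disc rim was higher by 1.07, and Unc119, a transport factor of transducin, was lower (-1.63). Prph2, the partner of Rom1, was listed at 0.688 RPKM in mTEChi and at 0 in mTEClo, below the filter.

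Among 13 retinal transcription factors 2 were kept. Nrl, the determinant of rod fate, had 6.55 RPKM in mTEChi and 0.647 RPKM in mTEClo (2.08). Crx was listed at 0.545 RPKM in mTEChi and at 0 in mTEClo, below the filter. The core of its site lay in 5 of the 7 promoter windows, not in that of Rlbp1, and those of Rcvrn and Gnat1 were not used. A part of Crx in the antigen values was not tested. Mitf, a factor of pigment cells, had 0.538 RPKM in mTEChi and 0.742 RPKM in mTEClo. Of 7 melanin genes 2 were kept. Dct, a melanin synthesis enzyme, was listed at 1.14 RPKM in mTEChi and at 0 in mTEClo, and Pmel, a melanosome fibril protein, had 2.68 RPKM in mTEChi and 3.10 RPKM in mTEClo. Of 9 genes of other retinal neurons 2 were kept, Pcp2, a G protein regulator of bipolar cells (1.46), and Isl1, a LIM homeodomain factor (-1.47). Over the 84 genes of the 6 lists, 32 were kept, 11 were 2-fold higher, 3 of them at 0 in mTEClo, and 5 were lower. Of all 15590 kept genes, 16.1% were 2-fold higher and 9.35% lower.

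**Figure D4:**
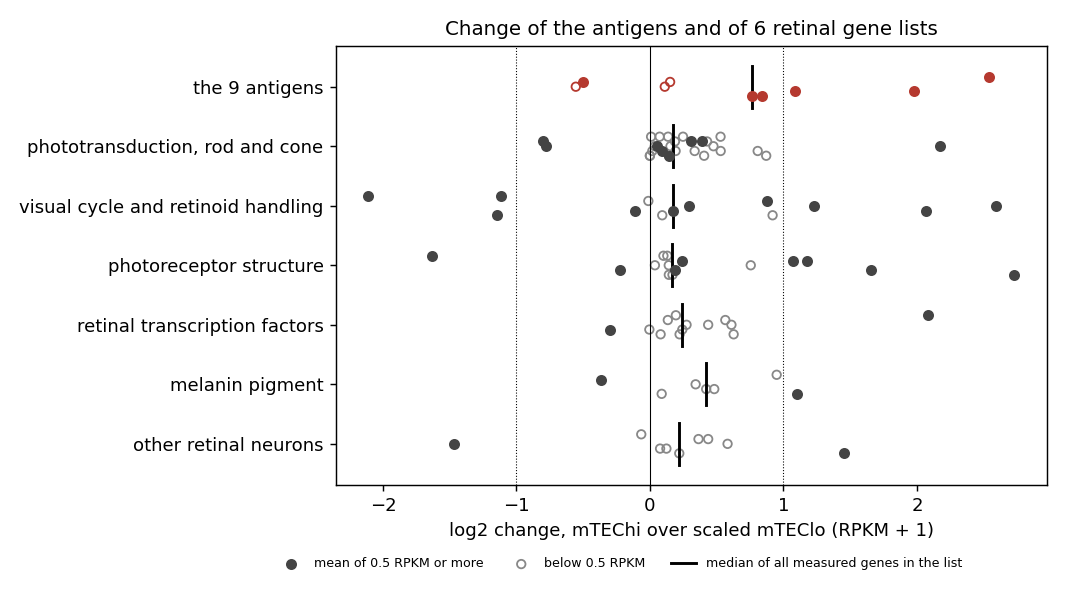
Log2 change of mTEChi over scaled mTEClo for each of the 9 antigens and each measured gene of 6 retinal lists, with filled points for genes kept by the filter, open points for genes below it and a bar at the median. Dotted lines mark 2-fold; 3 antigens lie past it on the higher side, and the visual cycle list has 3 genes past it on each side.

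Antigens of other tissues gave figures that varied by tissue, and the differences from them were not tested. Of all kept genes, 16.1% were 2-fold higher and 9.35% lower. Lens crystallin and fibre genes had 10 of 14 kept (20 measured) 2-fold higher, 5 of them at 0 in mTEClo. Their median was 0.92 over those measured. Thyroid autoantigens had 5 of 6 kept (9 measured) higher, 4 of them at 0 in mTEClo, and a median of 1.44. Myelin autoantigens had 2 of 7 kept (11 measured) higher, 0 of them at 0 in mTEClo, 2 lower and a median of 0.28. The share listed at 0 in mTEClo was 5 of 9 for the retinal antigens, 11 of 20 for lens, 7 of 9 for thyroid and 3 of 11 for myelin genes. Of all transcript lines, 28.0% were at 0 in mTEClo, a share over lines rather than genes and not matched for level.

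Of the 18 measured genes flanking the 9 members, 12 were kept, 2 were 2-fold higher, 3 lower and 7 neither. Of all 15590 kept genes, 16.1% were 2-fold higher and 9.35% lower. Among the neighbours, Glp2r, a gut hormone receptor whose span encloses Rcvrn, was higher, listed at 1.35 RPKM in mTEChi and at 0 in mTEClo. Slc38a3, an amino acid transporter beside Gnat1, was also higher (1.21). Sema3f, a semaphorin on the other side of Gnat1, was lower (-1.13), as were Arhgap29, a small GTPase regulator beside Abca4 (-1.66), and Calu beside Opn1sw (-1.29). Abhd2 (0.35) and Fanci (-0.49), which flank Rlbp1, and Dgkd after Sag (0.02) were within 2-fold.

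The genes with the pattern nearest to Rcvrn, the member with the highest mean, were Krt12, Apoc4, Pga5, Apol11a and Mir5136, by distance of log2 levels over the 2 libraries. Each was listed between 4.81 and 4.85 RPKM in mTEChi and at 0 in mTEClo. With 2 libraries this likeness is loose, and 42 kept genes at 0 in mTEClo lay within a distance of 0.1.

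All 14 medullary epithelial markers were above 0 in both libraries, with a lowest value of 47.9 RPKM in mTEChi and 5.77 RPKM in mTEClo. Of these, 8 were 2-fold higher and 2 lower, against 16.1% and 9.35% of all kept genes. The higher ones include the MHC class II pathway genes H2-Aa (1.41), H2-Ab1 (1.37) and Cd74 (1.35). The cells were sorted on MHC class II, so the direction of these genes is no separate evidence. Aire (2.61) and Cd80 (2.62) were among the higher ones, and Krt5 (-1.05) and Krt14 (-1.57) were lower. Epcam was within 2-fold, with 198 RPKM in mTEChi and 127 RPKM in mTEClo. Markers of other cells differed between the libraries to an extent that varied by cell type, and their sums are given before scaling. Macrophage and dendritic cell markers summed to 593 RPKM in mTEChi and 153 RPKM in mTEClo (without Lyz2, 99.4 RPKM in mTEChi and 19.6 RPKM in mTEClo), with 9 of 10 kept genes (13 measured) higher, and 0 of the 13 at 0 in mTEChi and 4 in mTEClo. B cell markers summed to 28.97 RPKM in mTEChi and 12.3 RPKM in mTEClo, with 2 of 4 kept (7 measured) higher and Cd79a, Ms4a1, Pax5 and Cd22 at 0 in mTEClo. Thymocyte markers summed to 19.95 RPKM in mTEChi and 14.2 RPKM in mTEClo (2 of 8 kept higher, 6 neither, 10 measured). Their median change over the kept genes was 0.0003. Fibroblast and pericyte markers summed to 164 RPKM in mTEChi and 747 RPKM in mTEClo (7 of 9 lower). Rgs5, a pericyte gene, was higher, with 126 RPKM in mTEChi and 49.1 RPKM in mTEClo, and without it the sums were 37.9 RPKM in mTEChi and 698 RPKM in mTEClo. Endothelial markers summed to 14.9 RPKM in mTEChi and 157 RPKM in mTEClo (7 of 7 lower). Their part in the values of the retinal antigens was not tested. In such bulk libraries fewer cells of a type and less RNA per cell cannot be told apart.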

How the data were processed

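The authors deposited 1 RPKM value for each RefSeq transcript line and library, which divides reads by length and by depth. Per the submitters' processing notes, CASAVA, Bowtie 1.0.0, bedtools and build mm9 were used, with no role given. The treatment of reads that several isoforms or paralogs share was not stated in the sources used here. Per the labels' protocols the TruSeq kit keeps no strand. Of 30794 lines, 30216 were named through a RefSeq table and 180 through GENCODE, and 398 were left out. A gene's value is its line with the highest mean.

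The scaling of 1.21 comes from the median log2 ratio over the 5167 genes that averaged at least 10 RPKM. Reads were recovered from RPKM times GENCODE length, which rises in steps of 1 read: 76.8% of 1637 transcripts with 1 to 10 reads in mTEChi and 65.3% of 1059 in mTEClo lay within 0.1 of a whole read. Lengths can differ from the authors', so reads are approximate. Intervals are exact Poisson for a level and Clopper-Pearson for a ratio (95%). Each recovered read is taken as independent. If both reads of a pair were counted in mTEChi, the intervals of mTEChi levels and of ratios are too narrow. The script was tested on simulated data.

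Members and lists were chosen with earlier results of these data known. Genes named in a list are the 8 with the largest change among kept genes, of which those past 2-fold and the most abundant are given, and defining genes fixed with the list. Some single genes are not reported here. Neighbours follow the gene order of GRCm38, and neighbours named besides those past 2-fold were chosen after their values were seen. Tables and intervals were made in Python 3.11.15 with scipy 1.17.1, pandas 2.3.3 and numpy 2.4.6, and figures with matplotlib 3.10.9.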

Additional observations from a re-analysis of the deposited data

How the results depend on the processing

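Scaling could turn the sign only for the 4 members above 0 in both libraries, and it turned none under the 3 scalings tried. Over the 8 planned settings Sag ranged from -0.77 to -0.20 and Abca4 from 0.24 to 2.10. The size of low values depends on the pseudocount. With 0.1 RPKM the median change of the 9 members was 1.82 and 5 members were 2-fold higher, beside 3177 kept genes higher and 2069 lower; with 5 RPKM the median was 0.22, 0 members and 4 genes of the retinal lists were 2-fold higher (3 lower), and 877 kept genes were higher and 648 lower in all. A filter at a mean of 2 RPKM left 1 member 2-fold higher and 1574 kept genes higher. Without scaling 3 genes of the retinal lists were lower, against 5. Among members above 0 in mTEClo, an alternative chosen after seeing the data, 0 were 2-fold higher with the pseudocount of 1 RPKM, beside 1679 kept genes higher and 1457 lower. Without a pseudocount, also added later, the log2 ratio was 2.60 for Abca4, 2.19 for Rgr, -0.82 for Sag and -6.05 for Opn1sw. The last of these rests on 2 reads in mTEChi. No paired analysis was possible because each group has 1 library, and no library could be left out. The read counts of mTEClo limit the ratios of Abca4, Rgr and Sag.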
